A study of Mus musculus with 7 samples.

Results

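The reactive astrocyte genes examined here are 10 genes used as marks of astrocyte reactivity: Serpina3n, Gfap, Vim, Cd44, C4b, Osmr, Lcn2, S1pr3, Timp1 and Steap4. They were taken by gene symbol from the count files of 7 mouse cerebellar RNA libraries, where all 10 were found among 24421 symbols, and all 10 passed the filter on low counts that left 16905 genes for testing. The 4 CicKO libraries come from mice that carry En1-Cre and 2 floxed alleles of Cic, and the 3 Wildtype libraries from mice that carry 1 floxed and 1 unmodified allele, with no Cre named for them. Cic encodes a transcriptional repressor. Its partner ATXN1 is the protein whose expanded form causes spinocerebellar ataxia type 1. All mice are C57BL/6, whole cerebellar tissue was used, and the labels give no age, sex or treatment. Cre under En1 acts in the embryonic midbrain and hindbrain and in the descendants of those cells, so cells that enter the cerebellum from elsewhere, such as microglia, keep Cic. Cre itself and the loss of Cic cannot be told apart in this design. Nothing in the labels states that the libraries come from separate animals, so the p-values measure the spread between these libraries.

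Astrocytes answer injury, infection and degeneration by enlarging their intermediate filament network, made of GFAP and vimentin, and by secreting protease inhibitors, complement proteins and iron-binding proteins. Much of this programme is driven by cytokines of the interleukin-6 family, which signal through the receptor subunit gp130 to the transcription factor STAT3. Mouse studies of inflammation and ischaemia gave lists of reactive genes that both insults induce and lists more typical of each. In the cerebellum the astrocytes include Bergmann glia, which ensheath Purkinje cells, and the fibrous astrocytes of the white matter, where Gfap is high in the resting state.

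Levels are read counts scaled to library size (CPM) after TMM scaling, and changes are log2 fold changes of CicKO over Wildtype from edgeR's quasi-likelihood test fitted on all genes, called at a Benjamini-Hochberg adjusted p below 0.05. The libraries held 102653765 to 121285349 gene counts each, so 3 counts, the limit that a count of 0 allows, equal 0.0245 to 0.0295 CPM. Cic was at 146 ± 1.33 CPM in CicKO and 232 ± 22.2 CPM in Wildtype libraries (SD, n = 4 and 3). Granule cell markers were abundant, with 2713 to 3163 CPM in CicKO and 2982 to 3268 CPM in Wildtype libraries summed over 6 granule neuron markers. CicKO 3 and Wildtype 3 stood apart by choroid plexus transcripts (summed level 12215 CPM in CicKO 3 and 8412 CPM in Wildtype 3, against at most 369 CPM in every other library). Xist was at 1556 and 1596 CPM in CicKO 1 and 2 and at or below 14.7 CPM in the other 5 libraries, so the sexes are not balanced between the groups.

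1 of the 10 genes, Serpina3n, was lower in CicKO, and 0 were called higher. Of all genes tested, 2.08% were called in either direction, 0.828% lower and 1.25% higher. At an unadjusted p below 0.05 Gfap and Cd44 were also lower and S1pr3 was higher, against 16.2% of all genes in either direction at that level. DESeq2 called 3 of the 10 lower, which were Serpina3n, Gfap and Cd44, and 0 higher, where that tool called 6.87% of all genes in either direction, 2.92% lower and 3.95% higher. Among the 10, limma-voom called Serpina3n only, against 2.01% of all genes in either direction, 0.828% lower and 1.18% higher. Log2 fold changes were negative for 4 genes and positive for 6, with a median of 0.08 beside -0.0044 for all tested genes. In 3 genes all CicKO libraries lay below all Wildtype libraries, which 8.36% of all genes showed, and in 1 gene all lay above, which 7.06% showed.

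**Figure D1:**
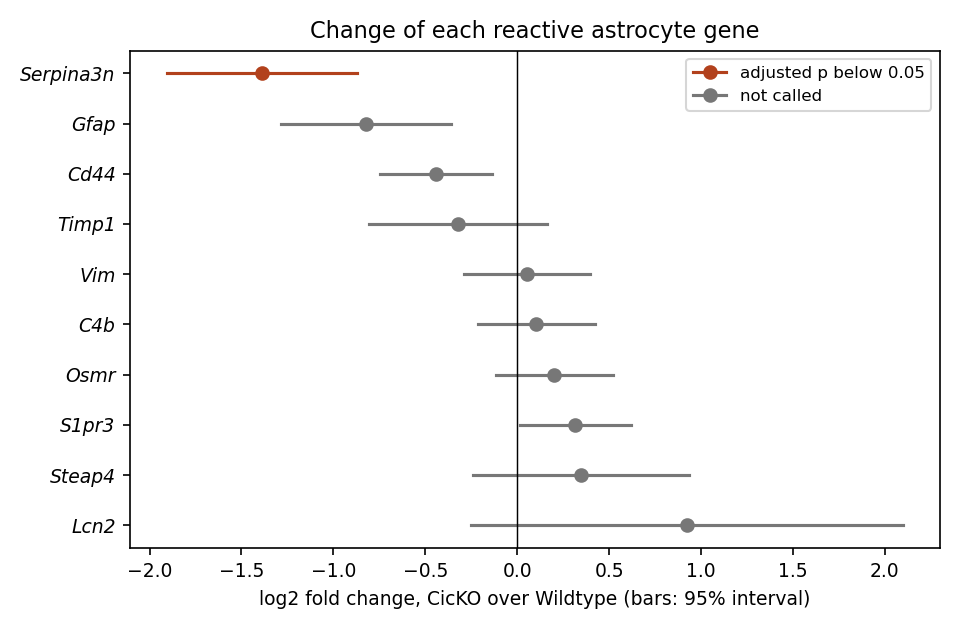
Log2 fold change of CicKO over Wildtype (x axis) for each of the 10 genes, with the 95% interval from edgeR as a bar. Serpina3n alone is coloured as called, and the intervals of Gfap, Cd44 and S1pr3 also lie on one side of 0.

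The windows around the start sites of Serpina3n, the called gene, and of Gfap, its nearest companion among the 10, are shown with that of Steap4 because 2 of these 3 hold a match to the palindromic STAT motif TTCCNGGAA. They are RefSeq windows of build GRCm38.p6, from 250 bases before to 50 after the annotated start, written 5′ to 3′ on the gene's strand, with a match in capitals. The Serpina3n window is chr12:104406458-104406757 on the plus strand, that of Gfap chr11:102897151-102897450 on the minus strand and that of Steap4 chr5:7960222-7960521 on the plus strand.
Serpina3n: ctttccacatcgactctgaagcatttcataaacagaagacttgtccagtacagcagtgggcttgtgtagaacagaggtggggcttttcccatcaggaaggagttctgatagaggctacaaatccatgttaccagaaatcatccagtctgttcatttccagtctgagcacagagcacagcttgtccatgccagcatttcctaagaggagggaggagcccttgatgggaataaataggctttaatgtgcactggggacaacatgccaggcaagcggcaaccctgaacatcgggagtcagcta
Gfap: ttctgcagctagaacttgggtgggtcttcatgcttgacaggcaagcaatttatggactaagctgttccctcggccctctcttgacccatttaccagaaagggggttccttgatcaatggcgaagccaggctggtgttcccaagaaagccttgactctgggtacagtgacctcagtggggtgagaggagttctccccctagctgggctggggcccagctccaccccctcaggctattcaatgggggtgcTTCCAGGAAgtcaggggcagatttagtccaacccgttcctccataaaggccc
Steap4: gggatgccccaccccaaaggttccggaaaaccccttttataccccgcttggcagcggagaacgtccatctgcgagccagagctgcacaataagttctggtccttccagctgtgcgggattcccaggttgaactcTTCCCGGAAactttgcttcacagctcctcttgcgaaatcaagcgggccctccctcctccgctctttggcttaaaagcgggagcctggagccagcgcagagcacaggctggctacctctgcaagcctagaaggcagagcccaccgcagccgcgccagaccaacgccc
Windows were found for 9 of the 10 genes, all but C4b. The motif was in the Gfap window as TTCCAGGAA at bases 249 to 257 and in the Steap4 window as TTCCCGGAA at bases 135 to 143, and in none of the other 7. It was in 1.15% of 32851 windows of this length in the table, on either strand. The wider form TTCNNNGAA, which contains the first, was in the same 2 windows and in 8.30% of all windows. The CIC octamers TGAATGAA, TGAATGGA, TCAATGAA and TCAATGGA, searched on both strands, were in 0 of the 9 windows, and at least 1 of them was in 3.84% of all windows. Gfap and Steap4, the genes with the STAT match, had log2 fold changes of -0.82 and 0.35.

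Serpina3n, a secreted inhibitor of serine proteases and among the most strongly induced genes of reactive mouse astrocytes, fell in CicKO. It was at 2.15, 2.68, 2.06 and 1.39 CPM in CicKO 1 to 4, against 4.69, 6.76 and 4.79 CPM in Wildtype 1 to 3. Every CicKO library was below every Wildtype library, with CicKO 2 the highest of its group and Wildtype 2 the highest of all. The means were 2.07 ± 0.531 CPM in CicKO and 5.41 ± 1.17 CPM in Wildtype (SD, n = 4 and 3), and the level in CicKO was 2.62-fold lower (log2 fold change -1.39, SE 0.227, edgeR adjusted p = 0.0237). The gene lies on chromosome 12 at 104406729 to 104414329 (GRCm38, GENCODE M21) and was read at 146 to 274 counts in CicKO and 546 to 724 counts in Wildtype libraries. Its call was lost without CicKO 1 (adjusted p = 0.0769), Wildtype 1 (0.0732) or Wildtype 3 (0.0807), and without CicKO 3 and Wildtype 3 together (0.0516). The log2 fold change was between -1.54 and -1.20 without any 1 library.

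Serpina3n has many paralogs in a cluster on the same chromosome, and reads shared between them could be lost or misassigned. All 10 other Serpina3 genes in the files had a mean below 1 CPM, and their summed level was 0.343 to 0.925 CPM in CicKO and 0.486 to 0.824 CPM in Wildtype libraries, with overlap. Serpina3g was the only paralog abundant enough to be tested, at 0.412 ± 0.266 CPM in CicKO and 0.443 ± 0.122 CPM in Wildtype (log2 fold change -0.11, adjusted p = 0.936).

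Gfap, the main intermediate filament of mature astrocytes, had the next largest negative difference. Its level was 112, 148, 119 and 85.6 CPM in CicKO 1 to 4, against 188, 252 and 177 CPM in Wildtype 1 to 3. All CicKO libraries lay below all Wildtype libraries, with CicKO 4 lowest and Wildtype 2 highest. The means were 116 ± 25.6 CPM in CicKO and 206 ± 40.5 CPM in Wildtype (SD, n = 4 and 3), and the gene lies on chromosome 11 at 102887336 to 102900912. The log2 fold change was -0.82 (SE 0.197, 95% interval -1.29 to -0.36), which did not pass over all genes (edgeR adjusted p = 0.0964). It passed with the replicate number as a block (-0.69, edgeR adjusted p = 0.00138) and in DESeq2 (adjusted p = 0.000113). In the block fit CicKO 4, which has no Wildtype library of its number, does not inform the difference. Over all alternatives run, adjusted p ranged from 0.000113 to 0.522.

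Vim, the second filament protein of reactive astrocytes and one also made by endothelium, choroid plexus and progenitor cells, overlapped between the groups. It was at 172, 228, 215 and 230 CPM in CicKO 1 to 4, against 236, 161 and 215 CPM in Wildtype 1 to 3. Wildtype libraries stood at both ends of the range. Its log2 fold change was 0.05 (95% interval -0.29 to 0.40, adjusted p = 0.901), and the sign turned without Wildtype 2 (-0.09). Per kilobase of exon, the ratio of Gfap to Vim was 0.735, 0.729, 0.622 and 0.419 in CicKO 1 to 4, against 0.897, 1.76 and 0.926 in Wildtype 1 to 3. The ratio was lower in every CicKO library than in every Wildtype library. This ratio was picked after the levels were seen and was not tested.

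Among 8 other intermediate filament genes, edgeR called 1 lower and 0 higher, against 0.828% and 1.25% of all genes, and limma-voom called 0. DESeq2 called Nefh, Nefm and Nefl lower and Synm higher, against 2.92% and 3.95% of all genes. At an unadjusted p below 0.05 in edgeR 2 were higher and 3 lower, against 16.2% of all genes in either direction. The edgeR call was Nefh, the heavy neurofilament subunit of large axons, at 107 ± 4.85 CPM in CicKO and 124 ± 0.771 CPM in Wildtype (log2 fold change -0.22, adjusted p = 0.0492). The neurofilament subunits Nefm (-0.37, adjusted p = 0.0833) and Nefl (-0.30, adjusted p = 0.168) were not called in edgeR. Synm, the filament protein synemin that partners with vimentin and GFAP, had a log2 fold change of 0.30 (edgeR adjusted p = 0.112).

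**Figure D2:**
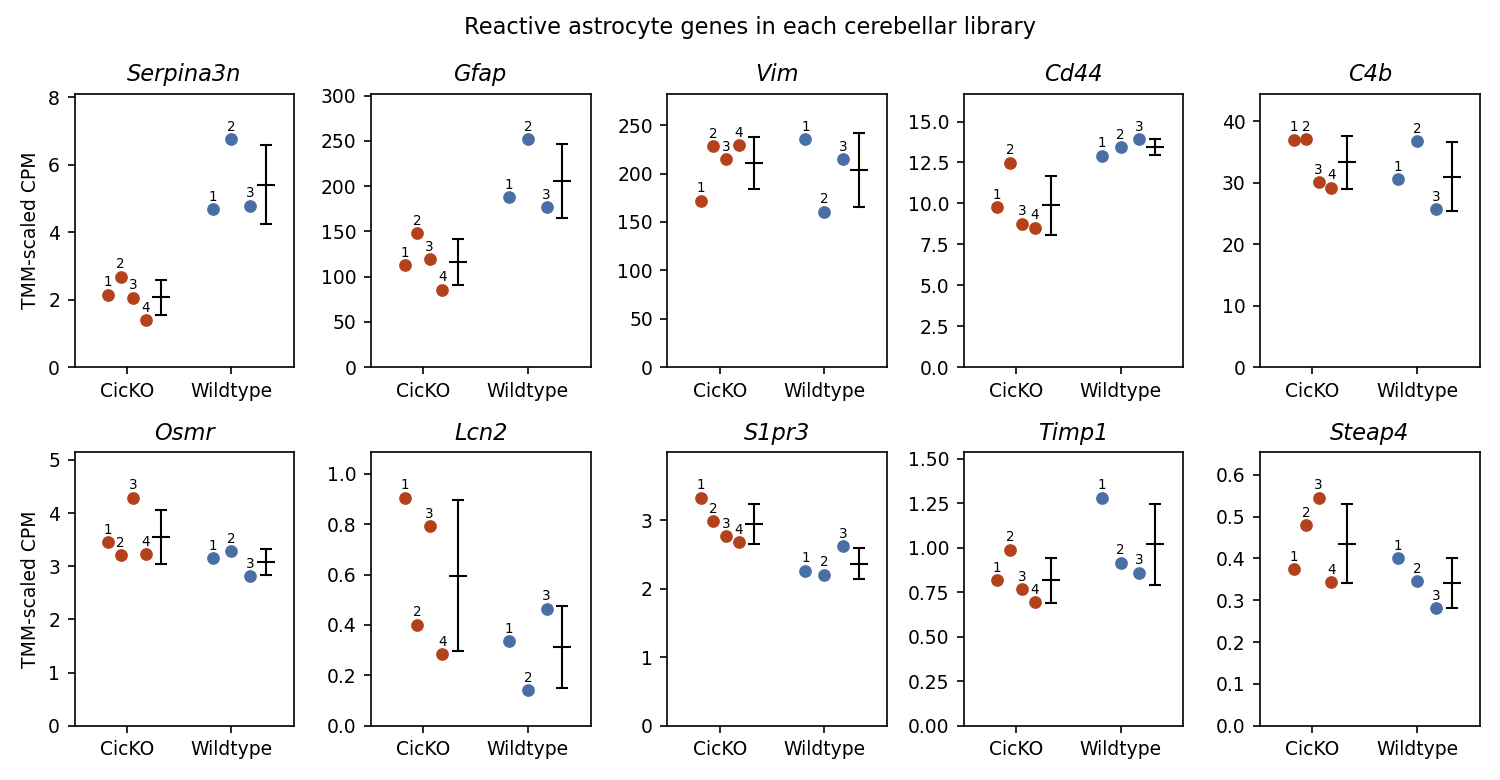
TMM-scaled CPM (y axis, from 0) of each gene in the 4 CicKO and 3 Wildtype libraries, with the replicate number above each point and the mean and SD as a bar to the right. The groups are apart for Serpina3n, Gfap, Cd44 and S1pr3 and overlap for the other 6 genes.

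Cd44, the hyaluronan receptor that appears on reactive and fibrous astrocytes, was the third gene below Wildtype with no overlap. Its gene lies on chromosome 2 at 102811141 to 102901665. It was at 9.79, 12.5, 8.77 and 8.53 CPM in CicKO 1 to 4, against 12.9, 13.5 and 13.9 CPM in Wildtype 1 to 3. CicKO 2 was just below Wildtype 1, and the 3 other CicKO libraries were well below. The log2 fold change was -0.44 (SE 0.132, 95% interval -0.74 to -0.14) and was not called (adjusted p = 0.151). It passed without CicKO 2 (-0.57, edgeR adjusted p = 0.0416) and in DESeq2 (adjusted p = 0.0286). Of 8 genes for hyaluronan synthesis and partners of CD44, edgeR and limma-voom called 0. At an unadjusted p below 0.05 in edgeR 2 were higher and 3 lower, against 16.2% of all genes in either direction. DESeq2 called Has1 and Has3 higher, against 3.95% of all genes. The smallest edgeR adjusted p was 0.133 for the hyaluronan synthase Has1, at 1.31 ± 0.0840 CPM in CicKO and 0.822 ± 0.187 CPM in Wildtype (log2 fold change 0.67).

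Timp1, a secreted inhibitor of metalloproteinases, was at 0.817, 0.989, 0.765 and 0.694 CPM in CicKO 1 to 4, against 1.28, 0.916 and 0.859 CPM in Wildtype 1 to 3. Only CicKO 2 reached into the Wildtype range. The log2 fold change was -0.32 (95% interval -0.80 to 0.16, adjusted p = 0.506). Its relatives were not called in edgeR: Timp2 had a log2 fold change of -0.01 (adjusted p = 0.995), Timp3 of -0.25 (adjusted p = 0.567) and Timp4, at 152 ± 10.5 CPM in CicKO and 185 ± 7.32 CPM in Wildtype, of -0.29 (adjusted p = 0.0609). DESeq2 called Timp4 and the metalloproteinase Mmp14 lower in this list of 6 genes, against 2.92% of all genes, where edgeR and limma-voom called 0. At an unadjusted p below 0.05 in edgeR 2 were lower, against 16.2% of all genes in either direction. The CicKO libraries ranked 2, 1, 3 and 4, from high to low, for Serpina3n, Cd44 and Timp1 alike.

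Osmr and S1pr3, receptors for a cytokine and a lipid, had small positive differences. Osmr, the receptor subunit that binds oncostatin M together with gp130, was at 3.46, 3.21, 4.29 and 3.23 CPM in CicKO 1 to 4, against 3.16, 3.28 and 2.81 CPM in Wildtype 1 to 3. CicKO 3 was the highest, and the groups overlapped (log2 fold change 0.20, 95% interval -0.12 to 0.52, adjusted p = 0.524). S1pr3, a receptor for sphingosine 1-phosphate, was at 3.33, 2.99, 2.77 and 2.68 CPM in CicKO 1 to 4, against 2.26, 2.20 and 2.62 CPM in Wildtype 1 to 3. All 4 CicKO libraries were above Wildtype, CicKO 4 and Wildtype 3 by the least, but the difference was not called (log2 fold change 0.32, SE 0.133, edgeR adjusted p = 0.289). S1pr3 shares 45 bases of exon with Gm32834 on the other strand, the only such overlap found for the 10 genes in GENCODE M21. Gm32834 is not among the gene symbols counted. S1pr1, the related receptor through which astrocytes and endothelium also sense this lipid, was at 204 ± 5.14 CPM in CicKO and 213 ± 6.81 CPM in Wildtype (log2 fold change -0.06, adjusted p = 0.550), and 0 of the 7 other receptors and enzymes of this lipid were called in edgeR, in DESeq2, in limma-voom or at an unadjusted p below 0.05.

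C4b, which encodes complement component 4, was at 37.0, 37.1, 30.1 and 29.2 CPM in CicKO 1 to 4, against 30.6, 36.8 and 25.7 CPM in Wildtype 1 to 3. The libraries of both groups were spread over the same range (log2 fold change 0.10, 95% interval -0.22 to 0.42, adjusted p = 0.762). The near-identical C4a lies beside it on chromosome 17, and reads common to both may be uncounted or misassigned. C4a was at 1.62 ± 0.216 CPM in CicKO and 1.42 ± 0.300 CPM in Wildtype (log2 fold change 0.19, adjusted p = 0.678). Of 17 complement genes, C4a among them, 0 were called in edgeR, in DESeq2, in limma-voom or at an unadjusted p below 0.05. C3, the central component, was at 1.65 CPM in CicKO and 1.50 CPM in Wildtype libraries on average (adjusted p = 0.909).

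Lcn2, the iron-siderophore carrier lipocalin 2, and Steap4, a metalloreductase, had the lowest levels per kilobase of exon. Lcn2 was at 0.906, 0.401, 0.791 and 0.285 CPM in CicKO 1 to 4, against 0.335, 0.140 and 0.465 CPM in Wildtype 1 to 3. These are 30 to 92 counts in CicKO and 15 to 53 counts in Wildtype libraries, and its interval was the widest of the 10 (log2 fold change 0.92, 95% interval -0.25 to 2.10, adjusted p = 0.426). CicKO 1 and 3 were above all Wildtype libraries and CicKO 4 was below 2 of the 3. Steap4 was at 0.374, 0.480, 0.545 and 0.342 CPM in CicKO 1 to 4, against 0.400, 0.346 and 0.280 CPM in Wildtype 1 to 3, with overlap (log2 fold change 0.35, adjusted p = 0.552). The Lcn2 receptor gene Slc22a17 was at 393 ± 44.3 CPM in CicKO and 381 ± 21.6 CPM in Wildtype (adjusted p = 0.857). In edgeR and limma-voom 0 of the 8 tested genes of the Steap and iron list were called. At an unadjusted p below 0.05 in edgeR 1 was higher and 1 lower, against 16.2% of all genes in either direction. Fth1, the ferritin heavy chain, had the smallest adjusted p in that list (log2 fold change -0.47, edgeR adjusted p = 0.0929). It was the 1 gene of the list that DESeq2 called, lower, against 2.92% of all genes.

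Divided by exon length, the levels spanned a wide range and their order differed in 2 places between the groups. In CicKO the order was Vim (44.5 ± 5.71 CPM per kilobase), Gfap (27.6 ± 6.07), C4b (5.86 ± 0.754), Cd44 (1.46 ± 0.268), Serpina3n (1.00 ± 0.257), Timp1 (0.919 ± 0.142), S1pr3 (0.659 ± 0.0645), Osmr (0.293 ± 0.0419), Lcn2 (0.227 ± 0.114) and Steap4 (0.138 ± 0.0298). There Cd44 overlapped Serpina3n, Serpina3n overlapped Timp1, and Osmr, Lcn2 and Steap4 overlapped their neighbours. In Wildtype the order was Gfap (48.7 ± 9.60 CPM per kilobase), Vim (42.9 ± 8.17), C4b (5.45 ± 0.981), Serpina3n (2.62 ± 0.567), Cd44 (1.98 ± 0.0741), Timp1 (1.15 ± 0.258), S1pr3 (0.529 ± 0.0506), Osmr (0.255 ± 0.0199), Lcn2 (0.119 ± 0.0622) and Steap4 (0.108 ± 0.0189). There only Gfap with Vim and Lcn2 with Steap4 overlapped between neighbours. Gfap stood before Vim and Serpina3n before Cd44 in Wildtype, and both pairs stood the other way round in CicKO. The lengths are those of all GENCODE M21 exons of a gene, which may not be the exons the authors counted.

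Of 29 further reactive genes, 27 were tested, with a median log2 fold change of -0.01. EdgeR and limma-voom each called 1 higher and 0 lower. Of all genes they called 1.25% and 1.18% higher, and each called 0.828% lower. DESeq2 called 5 higher and 3 lower, against 3.95% and 2.92% of all genes. At an unadjusted p below 0.05 in edgeR 6 were higher and 5 lower, against 16.2% of all genes in either direction. The called gene was Cxcl10, an interferon-induced chemokine, at 3.89, 2.86, 3.61 and 3.18 CPM in CicKO 1 to 4, against 1.30, 1.77 and 1.02 CPM in Wildtype 1 to 3 (log2 fold change 1.32, SE 0.210, adjusted p = 0.0224). Hspb1, Cp and Aspg, which both inflammation and ischaemia induce in mouse astrocytes, had log2 fold changes of -0.48, -0.13 and -0.35 (adjusted p = 0.453, 0.764 and 0.434).

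Of the 13 genes more typical of astrocytes after inflammation, 12 were tested and 0 were called in edgeR or limma-voom. At an unadjusted p below 0.05 in edgeR 4 were higher and 3 lower, against 16.2% of all genes in either direction. DESeq2 called 3 in each direction, against 3.95% of all genes higher and 2.92% lower. The smallest edgeR adjusted p-values were for Fkbp5, a glucocorticoid-induced chaperone partner (log2 fold change -0.68, adjusted p = 0.0767), Amigo2, an adhesion protein (-0.48, adjusted p = 0.0767), Fbln5, an elastic fibre protein (-1.05, adjusted p = 0.0833), and Iigp1, an interferon-induced GTPase (1.23, adjusted p = 0.135). Of the 12 genes more typical after ischaemia, 11 were tested and 0 were called in edgeR or limma-voom. At an unadjusted p below 0.05 in edgeR 1 was higher and 2 lower, against 16.2% of all genes in either direction. DESeq2 called 1 higher, against 3.95% of all genes. B3gnt5, an enzyme of glycolipid synthesis, was the gene DESeq2 called, at 51.2 ± 10.6 CPM in CicKO and 29.2 ± 1.55 CPM in Wildtype (log2 fold change 0.81, adjusted p = 0.0555), with all CicKO libraries above Wildtype. In the interferon response list 8 of 8 log2 fold changes were positive. Those of Iigp1 and B3gnt5 were positive too, and those of Fkbp5, Amigo2 and Fbln5 were negative. The summed level of the 8 interferon response genes was 453, 306, 284 and 440 CPM in CicKO 1 to 4, against 240, 223 and 224 CPM in Wildtype 1 to 3. In 7 of the 8 all CicKO libraries lay above all Wildtype libraries, against 7.06% of all genes. In edgeR and limma-voom 0 of the 8 were called. At an unadjusted p below 0.05 in edgeR 8 were higher, against 16.2% of all genes in either direction. DESeq2 called 6 higher, against 3.95% of all genes. The part of this list in the values of Cxcl10 and Iigp1, which belong to the same response, was not tested.

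**Figure D3:**
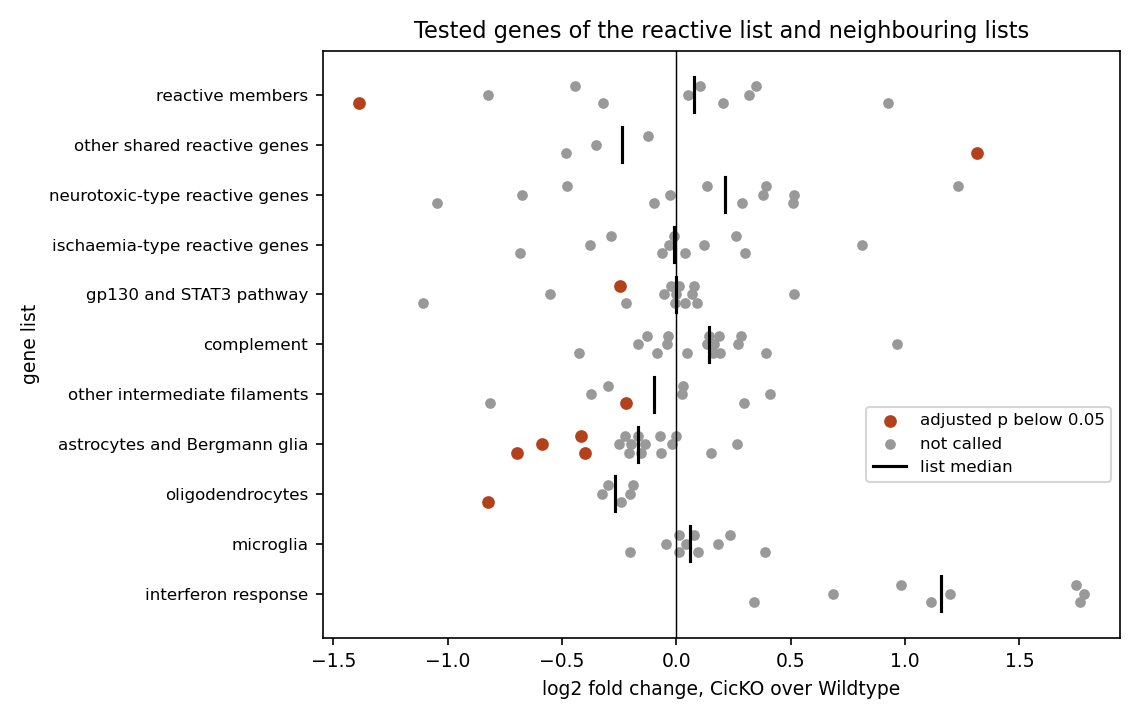
Log2 fold change of CicKO over Wildtype (x axis) of each tested gene in the reactive list and in 10 other lists (y axis; neurotoxic-type and ischaemia-type are the genes typical after inflammation and after ischaemia). Called genes are coloured and a black stroke marks each list's median, which is 0.08 for the 10 reactive genes, -0.17 for astrocytes and Bergmann glia, -0.27 for oligodendrocytes and 1.16 for the interferon response.

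In the gp130 and STAT3 pathway, 14 of 16 genes were tested. EdgeR and limma-voom each called 1 lower, which was Lifr, and 0 higher, where each called 0.828% of all genes lower. DESeq2 called Lifr and Cebpd lower, against 2.92% of all genes. At an unadjusted p below 0.05 in edgeR 1 gene was higher and 3 lower, against 16.2% of all genes in either direction. Lifr, the receptor subunit for leukaemia inhibitory factor, was at 36.7, 37.1, 36.7 and 36.9 CPM in CicKO 1 to 4, against 43.6, 42.1 and 45.4 CPM in Wildtype 1 to 3 (log2 fold change -0.25, SE 0.0457, adjusted p = 0.0368). The CicKO libraries differed little among themselves and all lay below Wildtype. The common subunit gp130, encoded by Il6st, was at 120 ± 6.80 CPM in CicKO and 125 ± 4.39 CPM in Wildtype (log2 fold change -0.06, adjusted p = 0.664), and Stat3 was at 60.9 ± 2.35 CPM in CicKO and 58.0 ± 2.39 CPM in Wildtype (0.07, adjusted p = 0.543). Socs3, a feedback inhibitor that STAT3 induces, was at 1.99, 1.80, 2.73 and 2.10 CPM in CicKO 1 to 4, against 1.77, 1.13 and 1.62 CPM in Wildtype 1 to 3, with no overlap but no call (0.52, adjusted p = 0.276). Cebpd, a transcription factor downstream of STAT3, had -0.55 (edgeR adjusted p = 0.131). The cytokine gene Lif had -1.11 at 6 to 12 counts in CicKO and 17 to 24 counts in Wildtype libraries (adjusted p = 0.154). Osm and Il6, the ligands, were too low to be tested. Osm had 5 to 13 counts in CicKO and 2 to 8 counts in Wildtype libraries, and Il6 had 2 to 5 counts in CicKO and 1 to 7 counts in Wildtype libraries.

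General astrocyte markers were partly lower. Their summed level over 17 genes was 10984 to 11413 CPM in CicKO and 10960 to 12390 CPM in Wildtype libraries, with overlap. Aldoc, the most abundant of them, was at 3308 CPM in CicKO and 2750 CPM in Wildtype libraries on average. The mean log2 CPM of the 17 was 8.10 to 8.18 in CicKO and 8.29 to 8.38 in Wildtype libraries, without overlap. Their median log2 fold change was -0.17. Called lower were 4 of the 17, which were Gdf10, Agt, Ndrg2 and Aqp4, and 0 were called higher, in edgeR and in limma-voom alike. Each of these tools called 0.828% of all genes lower. DESeq2 called Aldh1l1 lower as well, where it called 2.92% of all genes lower. At an unadjusted p below 0.05 in edgeR 8 were lower, against 16.2% of all genes in either direction. The log2 fold change was negative for 14 of the 17, and in 8 all CicKO libraries lay below all Wildtype libraries, against 8.36% of all genes. All 17 markers had a mean above 1 CPM. In whole tissue, fewer cells of a type and less RNA per cell cannot be told apart. The 10 microglia markers had 0 calls in edgeR, in DESeq2, in limma-voom or at an unadjusted p below 0.05 and summed to 145 to 203 CPM in CicKO and 170 to 180 CPM in Wildtype libraries. The 10 endothelial markers had a median log2 fold change of 0.20, with 10 of 10 above 0, and 0 calls in edgeR and limma-voom. At an unadjusted p below 0.05 in edgeR 2 were higher, against 16.2% of all genes in either direction. DESeq2 called 1 higher, against 3.95% of all genes. These markers summed to 217 to 272 CPM in CicKO and 201 to 232 CPM in Wildtype libraries.

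The oligodendrocyte markers partly followed Serpina3n and Gfap across the libraries. Their summed level over 6 genes was 3854, 5575, 4028 and 3523 CPM in CicKO 1 to 4, against 4701, 5857 and 5174 CPM in Wildtype 1 to 3. All 6 had negative log2 fold changes. EdgeR called 1 lower (Cldn11, -0.83, adjusted p = 0.0213), against 0.828% of all genes. DESeq2 called 2 lower (Cldn11 and Cnp), against 2.92% of all genes. CicKO 2, the highest CicKO library for Serpina3n, Gfap, Cd44 and Timp1, was also the highest of its group here, and CicKO 4 was the lowest in each of these. Wildtype 2 was the highest of all libraries here and for Serpina3n and Gfap. Unlike for those 2 genes, the groups overlapped for the oligodendrocyte markers, with CicKO 2 above Wildtype 1 and Wildtype 3. With the mean log2 CPM of these markers as a covariate, added after these levels were seen, the log2 fold change was -0.89 for Serpina3n (adjusted p = 0.326), -0.38 for Gfap (0.522) and -0.17 for Cd44 (0.738). The part of these markers in the values was not tested beyond this fit. Choroid plexus transcripts were high in 1 library of each group, and with their score as a covariate the values were -1.40 for Serpina3n (adjusted p = 0.0137), -0.83 for Gfap (0.0975) and -0.46 for Cd44 (0.0901).

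**Figure D4:**
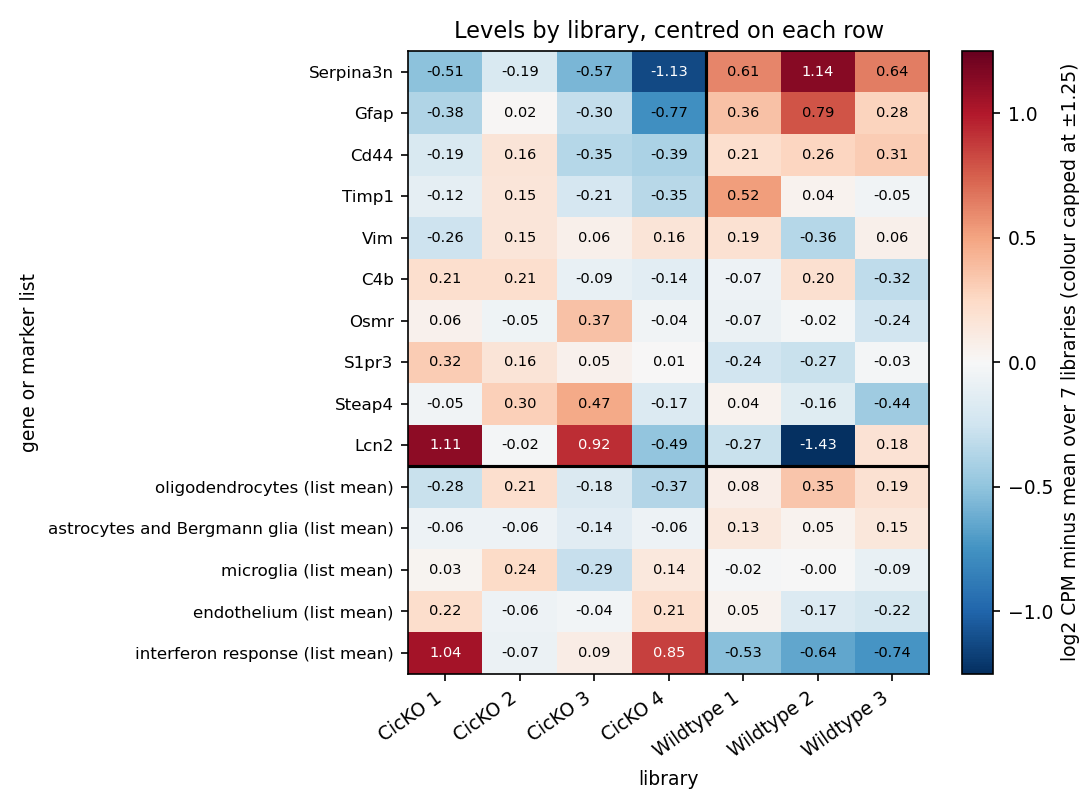
Log2 CPM minus the mean of each row over the 7 libraries (colour and printed value), for the 10 genes and below them for the mean of 5 marker lists, with CicKO libraries left of the black line and Wildtype libraries right of it. Serpina3n and Gfap are highest in Wildtype 2 (1.14 and 0.79) and lowest in CicKO 4 (-1.13 and -0.77), as is the oligodendrocyte mean (0.35 and -0.37). For the oligodendrocyte mean, but not for these genes, CicKO 2 lies above Wildtype 1 and Wildtype 3.

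The share of reads outside annotated genes also differed, at 18.2% to 19.0% in CicKO, against 16.0%, 18.6% and 16.5% in Wildtype 1 to 3. With it as a covariate Serpina3n was not called (log2 fold change -1.60, adjusted p = 0.109). The share of Wildtype 2 lay within the CicKO range. Beyond the covariate fit, the part of this share in the Serpina3n and Gfap values was not tested. With Xist as a covariate Serpina3n was called (-1.53, adjusted p = 0.0495). In the 2 CicKO libraries low in Xist against the 3 Wildtype libraries, Serpina3n had -1.64 (adjusted p = 0.112) and Gfap -0.99 (adjusted p = 0.265).

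The genes whose profile over the 7 libraries was most like that of Serpina3n were Hapln2, Fam163b, Fbxw15, Ryr3 and Gfap, by the root mean square difference of centred log2 CPM (0.15, 0.20, 0.26, 0.29 and 0.29) among 13173 candidates. Hapln2, which encodes a link protein of the hyaluronan matrix around axonal nodes, was at 16.4 CPM in CicKO and 37.3 CPM in Wildtype libraries on average. Ryr3, an intracellular calcium release channel, had a log2 fold change of -1.05 and was not called (adjusted p = 0.171). For Gfap, a comparison added after its levels were seen, the nearest were Kcnk13, Anln, Hapln2, Otof and Lrrtm4 (0.16, 0.18, 0.18, 0.19 and 0.19). Within 0.5 lay 86 genes for Serpina3n and 7281 for Gfap, and with 7 libraries the likeness is a description.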

How the data were processed

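Cerebellar RNA of mice was sequenced in 4 CicKO and 3 Wildtype libraries. Per the labels' protocols, cDNA was amplified from total RNA by poly(A) and random priming and made into Illumina libraries. Each deposited file holds the raw count of every gene symbol in 1 library. The submitters' processing notes name STAR 2.5.3a, HTSeq, DESeq2 and build mm10; annotation, strand setting and read filters were not given in the sources used here, so overlapping genes may share reads.

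The HTSeq summary rows were left out; 16.0% to 19.0% of all entries fell in no feature and 12.0% to 13.7% lacked a unique alignment. Low genes were removed with filterByExpr (R 4.3.3), and the rest were scaled by TMM and tested in edgeR 4.0.16 (robust quasi-likelihood, genotype only). The SE follows from the log2 fold change and F, and 95% intervals use edgeR's degrees of freedom. Log2 CPM used a prior count of 2. The fit was tested on simulated data. DESeq2 1.42.0, limma-voom (limma 3.58.1), other scalings, filters, covariates and left-out libraries were alternatives. Floors cover counting error only. Between libraries of 1 group the variance was 18.5 to 157 times that of sampling, so none was counted as a repeat of another.

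Replicates 1 to 3 occur in both groups. Deviations from the group means correlated at 0.145, 0.288 and 0.713 for same-numbered libraries, above the limit of 0.1 for pairing; some pairs with different numbers passed it too (CicKO 1 with Wildtype 2, 0.319). No label ties a number to a litter, batch or day.

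The 10 genes and the lists were chosen with earlier results of these data known, among them the decrease of Serpina3n, so they are not independent evidence. Named from each list are called genes and, up to 4, those with the smallest adjusted p, with paralogs and direct partners whatever their p, and the 5 genes most like Serpina3n with a mean of at least 1 CPM. Coordinates and exon lengths are from GENCODE M21 (GRCm38), start-site windows from RefSeq (GRCm38.p6).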

Additional observations from a re-analysis of the deposited data

How the results depend on the processing

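All 10 genes were run under 20 alternatives, 18 of them planned; 2 (the oligodendrocyte score, and leaving out CicKO 1 and 2, the libraries high in Xist) were chosen after seeing the data. Lcn2, Timp1 and Steap4 could not be fitted under the filter of 1 CPM in 3 libraries, which removed them. Of the 197 values, 182 kept their direction and their side of the threshold. Serpina3n was lower in all 20 (log2 fold change -1.64 to -0.89) and called in 13; Gfap and Cd44 were lower in all 20 and called in 2 each. Vim turned without Wildtype 2 (-0.093, within -0.093 to 0.17 when 1 library was left out), and C4b turned without Wildtype 3 (-0.015, within -0.015 to 0.25), without CicKO 1 and 2 together (-0.053) and with the share of reads outside genes as a covariate (-0.031); the cause was not tested.

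The count of the 10 genes called lower was 3 in DESeq2, 2 with the replicate block, 0 with the oligodendrocyte score or the share of reads outside genes as a covariate, 0 without CicKO 1 and 2 together, 0 without CicKO 3 and Wildtype 3 together, and 0 to 2 without any 1 library; 0 were called higher in each. The replicate block changed no call other than that of Gfap among the 10. Over all genes, edgeR called 212 higher and 140 lower. DESeq2 gave 673 and 497, the choroid plexus score 379 and 315, Xist 73 and 31, the share of reads outside genes 46 and 12, the oligodendrocyte score 30 and 3, and leaving out CicKO 1 and 2 together 16 and 2, with fewer samples. Leaving out 1 library gave 65 to 493 higher and 21 to 349 lower. Lcn2 had 15 to 92 counts a library and Steap4 32 to 62, the 2 lowest of the 10 genes in CPM, which limits the precision of both.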

Other observations

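Among markers of cells other than astrocytes, pericyte and meningeal fibroblast genes summed to 117 to 166 CPM in CicKO and 110 to 200 CPM in Wildtype libraries, with 0 of 9 called in edgeR, in DESeq2, in limma-voom or at an unadjusted p below 0.05. The 6 Purkinje cell markers had a median log2 fold change of 0.19, with 6 of 6 above 0 and 0 called by any of these, and summed to 7084 to 10081 CPM in CicKO and 7140 to 8680 CPM in Wildtype libraries. Of 3 forebrain neuron genes, 2 were tested and edgeR called 1 lower, against 0.828% of all genes. This was Neurod6, at 6.27 to 7.02 CPM in CicKO and 10.1 to 11.7 CPM in Wildtype libraries (edgeR log2 fold change -0.70, adjusted p = 0.00796). Of 4 blood genes, 2 had 0 counts in every library and 2 were tested, of which edgeR called 1 lower, against 0.828% of all genes. The called gene was Slc4a1, an anion exchanger of red blood cells, at 0.654 CPM in CicKO and 2.01 CPM in Wildtype libraries on average (-1.62, edgeR adjusted p = 0.00946). The part of blood content in this value was not tested.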
